A study of Chlorocebus sabaeus with 6 samples.

Results

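The genes described here encode the signalling pathways of transforming growth factor beta (TGF-beta), activins and bone morphogenetic proteins (BMPs). They were chosen by symbol from a list of 54 names, and 50 of the 18050 genes in the deposited table carried such a symbol. BMP5, BMP8A, BMPR1B and ID4 had no matching symbol and were not analysed here. RNA was measured in COS7 cells, a fibroblast-like line from African green monkey kidney (Chlorocebus sabaeus) immortalised with SV40. A group of 3 wild-type samples (WT) was compared with 3 samples of COS7 cells with a knockout of ATL2 and ATL3 (DKO). Their products are atlastins, GTPases in the membrane of the endoplasmic reticulum that join its tubules. All 6 samples carried the SV40 background of the line and were grown in DMEM with serum. The labels give neither the number of knockout clones nor whether the samples of a group were separate cultures, so a p-value covers the spread among these samples only, and that spread may be technical.

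TGF-beta family ligands are secreted as dimers and bind pairs of type I and type II receptors, which are serine/threonine kinases. The type II receptor activates the type I receptor, which phosphorylates SMAD2 and SMAD3 in the TGF-beta and activin branch, or SMAD1, SMAD5 and SMAD9 in the BMP branch. These receptor-regulated SMADs join SMAD4 and act in the nucleus, where the ID genes are classical BMP targets and SMAD6, SMAD7, SKIL, PMEPA1 and BAMBI are induced as brakes on the pathway. Atlastin has been linked to BMP receptor trafficking in zebrafish motor neurons. In the kidney, BMP7 is needed for nephron formation and TGF-beta is a driver of fibrosis.

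The libraries held 14197344 to 15693049 estimated counts. The targeted transcripts were lower in every DKO library, where ATL2 had 183 to 320 estimated counts against 1211 to 1354 in WT and ATL3 had 107 to 156 against 956 to 1046. Log2 changes are DKO over WT. Of the cell type markers checked, VIM, KRT8, KRT18 and PAX8 were well expressed in WT (mean levels of 1533, 508, 189 and 76.3 FPKM, fragments per length of transcript and depth of library). The fibroblast marker THY1 was at 0 counts in all 6 libraries and COL1A2 at 0 in WT. The summed level of the 9 fibroblast markers ran from 4022 to 4175 FPKM in WT and from 2827 to 3151 in DKO, and that of 8 kidney epithelium markers from 772 to 868.1 and from 557 to 721. Single markers went both ways. FN1, the largest part of the fibroblast sum in WT, was at 1838 FPKM in WT and 207 in DKO (group means). LGALS1 was at 695 and 1407, PDGFRB at 0.587 and 5.35, EPCAM at 12.9 and 32.0, LHX1 at 33.9 and 0.09, and CDH1 at 4.84 and 0.0867. The part of these shifts in the results was not tested. The DKO 3 library stood apart: its median absolute log2 difference over the tested genes was 0.45 from DKO 1 and 0.46 from DKO 2, against 0.07 between DKO 1 and DKO 2 and 0.08 to 0.11 between WT libraries. It was lower in long transcripts, with a median log2 difference from DKO 1 and 2 of -0.13 over the 4365 longest genes, and higher in short ones, with 0.28 over the 4365 shortest. The part of this trend in the results below was not tested, and values without DKO 3 are given for each tested member and, for the context list, as counts.

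Of the 50 genes, 45 passed the filter on low counts, and 30 of these were called at an edgeR adjusted p below 0.05, 12 higher and 18 lower in DKO. Over all 13094 genes tested, 45.5% were called (23.3% higher and 22.2% lower), so a call alone was common. The members were chosen with earlier results of these data known, so setting their shares beside those of all genes is description, not a test. With a log2 change of at least 1 in size, 7 members were higher and 12 lower, against 9.83% and 12.1% of all tested genes (21.9% in either direction). The median log2 fold change of the 45 was -0.36, also with GDF6 at its lower bound, and that of all tested genes was -0.01. INHBB, BMP6, GDF6, NOG and CHRD had a library below the filter's count in a group. INHBB, BMP6 and NOG passed the filter only through DKO and GDF6 only through WT, in each case the group in which the gene was high. CHRD, which was not called, had a DKO library below that count. For 37 of the 45 the groups did not overlap, against 62.6% of all tested genes. Without DKO 3, each of the 30 kept its call and direction. In that fit 41 of 47 tested members were called, 16 higher and 25 lower, where 74.6% of all genes were called (36.0% higher and 38.6% lower). The plot of fold changes shows both fits. In bulk RNA, fewer cells that express a gene and less RNA per cell cannot be told apart.

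**Figure D1:**
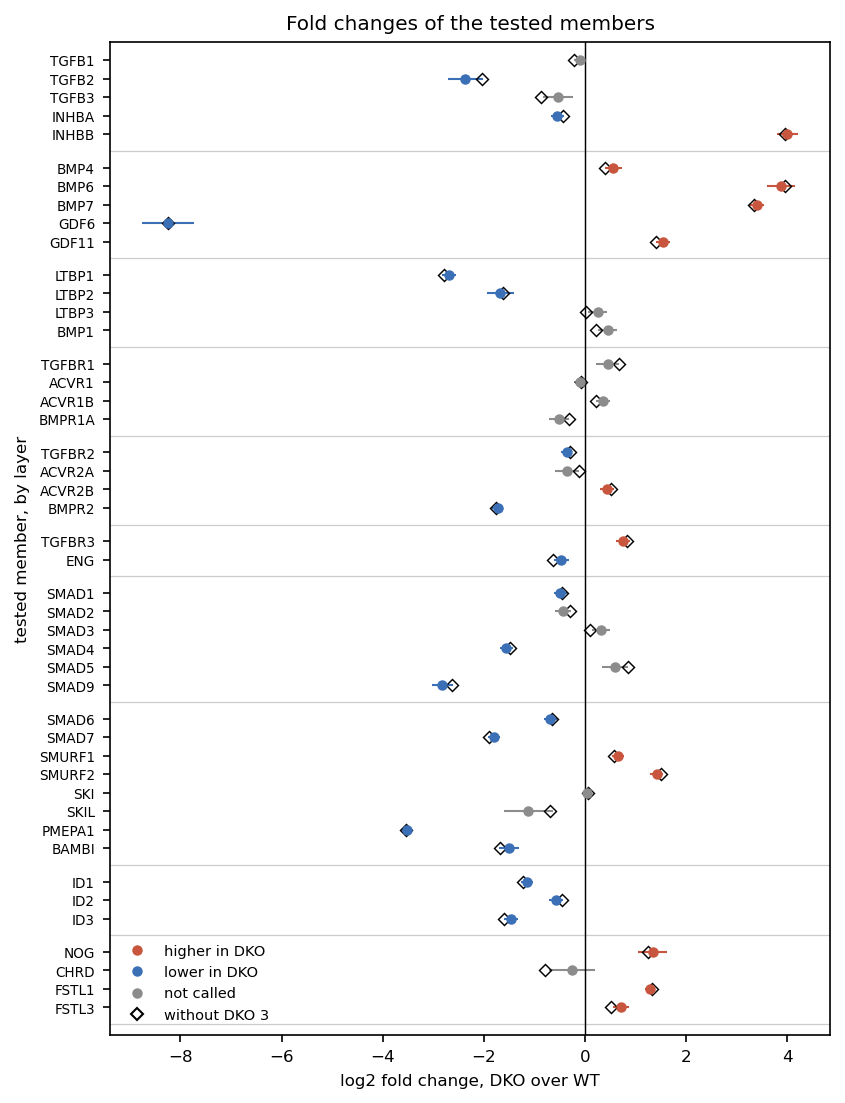
Log2 fold change (DKO over WT) of the 45 tested genes, ordered by layer, with the standard error as bars (n = 3 per group) and colour for the edgeR call at an adjusted p below 0.05. Open diamonds give the fit without DKO 3; the ID genes, SMAD7, PMEPA1 and BAMBI lie to the left of 0 and BMP6, BMP7, GDF11 and INHBB to the right in both fits. GDF6, with 0 counts in DKO, is drawn at its fitted value, which depends on the prior count and is no bound.

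Among the TGF-beta and activin ligands, TGFB2 fell, INHBA fell by less and INHBB rose, while TGFB1, the most abundant ligand, was not called. TGFB1 (gene ID 103234729), the ligand best known from fibrosis and immune control, had 100, 106 and 96.0 FPKM in WT and 85.6, 88.0 and 97.5 FPKM in DKO. The groups overlapped through DKO 3, and the log2 change was -0.11 (SE 0.11, edgeR adjusted p = 0.47). Without DKO 3 it was -0.21, with an edgeR adjusted p of 0.000107. TGFB2 (gene ID 103230082), which acts in heart and kidney development and binds TGFBR2 poorly without the co-receptor TGFBR3, had 23.1, 22.7 and 25.0 FPKM in WT and 5.96, 5.44 and 2.09 FPKM in DKO. All DKO libraries lay below WT, DKO 3 lowest, with a log2 change of -2.37 (SE 0.34, edgeR adjusted p = 0.0015) and of -2.04 without DKO 3. TGFB3, which is needed for palate fusion, stayed under 1 FPKM in every library (WT 0.627 ± 0.142 and DKO 0.413 ± 0.127 FPKM, SD, n = 3 each; edgeR adjusted p = 0.19). Its log2 fold change was -0.54, and -0.88 without DKO 3 (edgeR adjusted p = 0.0087). As a share of the summed FPKM of the TGFB genes, TGFB2 made up 18.9 ± 1.49% in WT against 4.79 ± 2.37% in DKO (SD, n = 3 each).

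The activin subunit genes moved in opposite directions. INHBA (gene ID 103226169), whose product forms activin A, had 48.9, 51.6 and 57.7 FPKM in WT and 37.4, 39.7 and 28.4 FPKM in DKO. The DKO libraries all lay below WT, with a log2 change of -0.55 (SE 0.13, edgeR adjusted p = 0.0124), but the call was lost without WT 3 (-0.49, edgeR adjusted p = 0.0597). INHBB (gene ID 103216911), whose product forms activin B, had 0.11, 0.15 and 0.17 FPKM in WT and 2.36, 2.20 and 2.31 FPKM in DKO. These came from 5 to 8 estimated counts per WT library and 95 to 113 per DKO library, a 16.3-fold higher normalised count in DKO (log2 fold change 4.00, SE 0.20, edgeR adjusted p = 1.6e-05). INHBB passed the filter only through DKO, the group in which it was high. Without DKO 3 the log2 changes of INHBA and INHBB were -0.45 and 3.95, both called by edgeR. INHBB remained the minor subunit: its share of the summed FPKM of INHBA and INHBB was 0.269 ± 0.0391% in WT and 6.23 ± 1.17% in DKO.

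Of the 5 tested BMP and GDF ligands 4 rose and 1 fell, beside 23.3% and 22.2% of all tested genes. BMP7, BMP6, GDF11 and BMP4 rose, while GDF6 and BMP2 were at 0 counts in every DKO library. BMP7 (gene ID 103243784), the kidney morphogen, had 1.65, 2.17 and 1.90 FPKM in WT and 19.5, 18.7 and 20.2 FPKM in DKO. The DKO libraries were close to each other and 10.5-fold above WT in normalised counts (log2 fold change 3.39, SE 0.15, edgeR adjusted p = 8.7e-06). BMP6 (gene ID 103222207), known for inducing hepcidin in iron control, had 0.30, 0.13 and 0.18 FPKM in WT, from 7 to 16 counts, and 2.88, 3.47 and 2.40 FPKM in DKO. That was a 14.7-fold difference (log2 fold change 3.86, SE 0.28, edgeR adjusted p = 6.2e-05). BMP6 passed the filter only through DKO, the group in which it was high. In RefSeq its span overlaps TXNDC5, which was itself higher in DKO (log2 fold change 0.55), and a share of its reads in the BMP6 count was not tested.

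GDF11 (gene ID 103238487), a relative of myostatin that signals through SMAD2 and SMAD3, had 4.68, 4.41 and 4.94 FPKM in WT and 12.1, 12.6 and 14.6 FPKM in DKO. All DKO libraries lay above WT (log2 fold change 1.53, SE 0.14, edgeR adjusted p = 0.00017). In RefSeq the GDF11 span overlaps SARNP, whose log2 fold change was -0.02 (edgeR adjusted p = 0.91). BMP4 (gene ID 103229007), a mesoderm and ureteric bud morphogen, had 4.43, 4.57 and 4.15 FPKM in WT and 5.60, 6.15 and 7.22 FPKM in DKO. Its rise was small, 0.56 on the log2 scale (SE 0.17, edgeR adjusted p = 0.031), and the call was lost without WT 1, WT 2, WT 3 or DKO 2, with edgeR adjusted p-values of 0.0992, 0.0824, 0.117 and 0.0501.

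GDF6 (gene ID 103237164), a regulator of joint and eye formation, was counted 36, 41 and 39 times in the WT libraries (0.67, 0.76 and 0.72 FPKM) and never in DKO. Against a floor of 3 counts per library it was at least 12.3-fold lower in DKO (edgeR adjusted p = 0.00021). GDF6 passed the filter only through WT, the group in which it was high. BMP2 (gene ID 103246725), which drives bone formation, was counted 14, 9 and 14 times in the WT libraries and never in DKO, at least 3.92-fold lower. It fell below the filter, and an exact two-sided permutation test over the samples returned p = 0.1, the least possible with 3 samples in each group. Without the filter its edgeR adjusted p was 0.0023. Without DKO 3 the filter asked for fewer libraries, and BMP2 passed it only through WT, the group in which it was high. It was called lower in that fit (edgeR adjusted p = 1.7e-06). GDF5 had 1 count in all 6 libraries together. Bounds and counting intervals cover counting error only. Without DKO 3 the log2 changes of BMP7, BMP6, GDF11 and BMP4 were 3.33, 3.95, 1.41 and 0.40, and GDF6 was again called lower by edgeR (adjusted p = 7.9e-13).

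Summed over the 7 genes with a row, BMP and GDF ligand transcripts came to 12.2 ± 0.0907 FPKM in WT against 41.8 ± 2.27 FPKM in DKO (SD, n = 3 each). BMP7 made up 15.6 ± 2.03% of this sum in WT and 46.6 ± 1.77% in DKO. BMP4 made up 35.9 ± 1.78% in WT and 15.1 ± 1.16% in DKO, and GDF11 38.4 ± 2.23% and 31.3 ± 1.36%. BMP7 was behind BMP4 and GDF11 in each WT library and ahead of them in each DKO library. The sums are a description of levels per length and were not tested.

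**Figure D2:**
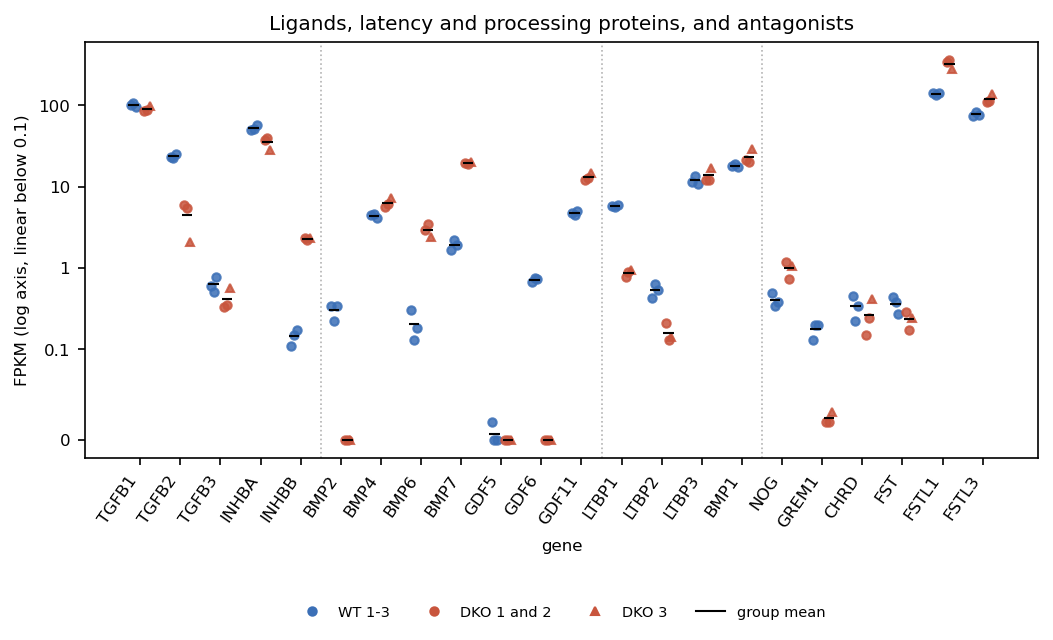
FPKM (log axis, linear below 0.1) of the ligands, the latency and processing genes and the antagonists in each library; bars mark group means, triangles mark DKO 3, and dotted lines part the layers. BMP7 sits between 1.65 and 2.17 in WT and between 18.7 and 20.2 in DKO, while TGFB1 overlaps between the groups.

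Latent TGF-beta is stored in the matrix by latent TGF-beta binding proteins. Of the genes with this name, LTBP1 and LTBP2 fell, and LTBP4, in the context list, rose. LTBP1 (gene ID 103220522), the main partner of the TGFB1 latent complex, had 5.76, 5.62 and 5.94 FPKM in WT and 0.77, 0.90 and 0.95 FPKM in DKO. Its normalised count in DKO was 15.4% of that in WT (log2 fold change -2.69, SE 0.14, edgeR adjusted p = 1.9e-05). LTBP2, which binds elastic fibres rather than latent TGF-beta, fell from 0.533 ± 0.110 to 0.160 ± 0.0436 FPKM (log2 change -1.68, SE 0.26, edgeR adjusted p = 0.0021). LTBP3 was not called, with 11.9 ± 1.45 FPKM in WT and 13.7 ± 2.79 in DKO (edgeR adjusted p = 0.33). LTBP1 made up 31.9 ± 3.12% of the summed FPKM of LTBP1, LTBP2 and LTBP3 in WT and 6.03 ± 0.826% in DKO. This sum leaves out LTBP4, at 3.70 FPKM in WT and 16.8 in DKO (group means). BMP1 (gene ID 103215447), despite its name a procollagen protease that also cleaves LTBP1 and the antagonist chordin, had 17.8, 18.7 and 17.5 FPKM in WT and 20.9, 19.7 and 29.0 FPKM in DKO. DKO 3 was the highest and the log2 fold change of 0.45 was not called (SE 0.19, edgeR adjusted p = 0.089). Without DKO 3 it was 0.21 with an edgeR adjusted p of 0.0022, and the log2 changes of LTBP1, LTBP2 and LTBP3 were -2.80, -1.63 and 0.03, LTBP3 again not called.

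Among the secreted antagonists of the member list, the abundant follistatin-like genes rose and the classical BMP traps stayed near or below 1 FPKM. Abundant extracellular modulators of the context list went both ways. CHRDL1 fell from 55.9 to 27.1 FPKM (group means, log2 change -1.01, SE 0.10) and CRIM1 rose from 128 to 218 FPKM (0.70, SE 0.08). NBL1 (log2 change -0.52, edgeR adjusted p = 0.058) was called lower only without DKO 3 or under some other settings. CHRDL1, CRIM1 and NBL1 were picked after their values were seen. FSTL1 (gene ID 103228208), a secreted glycoprotein that binds BMP4, had 141, 134 and 140 FPKM in WT and 338, 354 and 281 FPKM in DKO. It was the most abundant of the 50 genes in DKO, and all DKO libraries lay above WT (log2 fold change 1.28, SE 0.09, edgeR adjusted p = 5.7e-05). FSTL3 (gene ID 103233581), which traps activins and myostatin, rose from 76.9 ± 5.57 to 120 ± 15.8 FPKM (log2 change 0.70, SE 0.16, edgeR adjusted p = 0.0101). NOG, which encodes the BMP trap noggin, was counted 13, 9 and 10 times in the WT libraries and 30, 18 and 30 times in DKO, or 0.403 ± 0.0777 and 0.987 ± 0.241 FPKM (log2 change 1.34, SE 0.29, edgeR adjusted p = 0.008). NOG passed the filter only through DKO, the group in which it was high.

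CHRD, which encodes chordin, had 0.45, 0.22 and 0.34 FPKM in WT and 0.15, 0.24 and 0.41 in DKO. The groups overlapped (log2 fold change -0.26, edgeR adjusted p = 0.68), and the log2 fold change was -0.80 without DKO 3 (edgeR adjusted p = 0.077). GREM1, the BMP antagonist gremlin, and FST, the activin antagonist follistatin, were below the filter. GREM1 had 32 counts over the WT libraries and 4 over the DKO libraries, 13.1% of WT (exact 95% counting interval 3.36 to 36.9%). FST had 34 and 16, 49.2% of WT (25.4 to 91.6%). In normalised counts all DKO libraries of both lay below WT, though for FST the FPKM of the groups overlapped (0.27 in WT 3 and 0.29 in DKO 1), and the exact two-sided permutation test gave p = 0.1, the smallest it can give here. Without the filter the edgeR adjusted p was 0.0023 for GREM1 and 0.095 for FST. Without DKO 3 the filter asked for fewer libraries, and GREM1 passed it only through WT, the group in which it was high. It was then called lower (log2 change -3.18, edgeR adjusted p = 0.00016). In that fit NOG, FSTL1 and FSTL3 had log2 changes of 1.24, 1.32 and 0.52, all called by edgeR.

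With all libraries edgeR called none of the 4 tested type I receptors at an adjusted p of 0.05, while DESeq2 called BMPR1A (adjusted p = 0.0478). BMPR1A (gene ID 103215874), the main type I receptor for BMP2 and BMP4 and the most abundant of this layer, had 28.3, 29.2 and 31.6 FPKM in WT and 23.4, 24.2 and 13.6 FPKM in DKO. All DKO libraries lay below WT and DKO 3 was the lowest (log2 fold change -0.51, SE 0.20, edgeR adjusted p = 0.073). TGFBR1, the type I receptor of TGF-beta, had 8.59, 8.35 and 9.67 FPKM in WT and 13.5, 14.6 and 7.41 in DKO. Here DKO 1 and 2 were above WT and DKO 3 below it, with a log2 change of 0.44 (SE 0.23, edgeR adjusted p = 0.16). ACVR1B, the activin type I receptor, had 7.92 ± 0.146 FPKM in WT and 9.78 ± 1.04 in DKO (0.35 on the log2 scale, edgeR adjusted p = 0.068).

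ACVR1, a type I receptor for BMP6 and BMP7, had 9.10 ± 0.151 FPKM in WT and 8.13 ± 0.797 in DKO (log2 fold change -0.10, SE 0.11, edgeR adjusted p = 0.47). ACVRL1, the endothelial type I receptor for BMP9, had 0 counts in WT and 2 over the DKO libraries, so no fold is given. Over the 4 tested genes of this layer the edgeR calls without DKO 3 were 2 higher (TGFBR1, 0.67, and ACVR1B, 0.22, log2 fold changes) and 1 lower (BMPR1A, -0.32), with adjusted p-values of 1.96e-13, 0.0049 and 2.4e-06. This is near the 74.6% of all genes called in that fit. ACVR1 was at -0.07 and not called. With all libraries, 2 of the 4 (ACVR1B and BMPR1A) had an unadjusted edgeR p below 0.05. Of all tested genes, 45.5% passed the stricter adjusted threshold of 0.05, so this was common.

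Of the type II receptors, BMPR2 fell most. BMPR2 (gene ID 103217668), the type II receptor dedicated to BMPs and the gene mutated in heritable pulmonary arterial hypertension, had 16.5, 16.8 and 18.3 FPKM in WT and 4.85, 5.28 and 5.01 FPKM in DKO. The groups lay far apart, with DKO 3 between DKO 1 and 2, and the normalised count in DKO was 30.2% of that in WT (log2 fold change -1.73, SE 0.11, edgeR adjusted p = 3.5e-05). TGFBR2 (gene ID 103241808), the type II receptor of TGF-beta and the most abundant of this layer over the 2 groups, had 21.2, 21.1 and 21.0 FPKM in WT and 16.9, 17 and 13.4 FPKM in DKO. Its fall of 0.37 on the log2 scale (log2 fold change -0.37, SE 0.11, edgeR adjusted p = 0.029) was no longer called without WT 1, WT 2, WT 3 or DKO 1 (edgeR adjusted p = 0.107, 0.0982, 0.102 and 0.0522).

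ACVR2A and ACVR2B encode type II receptors shared by activins and BMPs. ACVR2B had 1.88, 1.64 and 1.66 FPKM in WT and 2.41, 2.47 and 1.94 in DKO, a log2 change of 0.43 (SE 0.13, edgeR adjusted p = 0.033). Its call was lost without any of WT 1, WT 2, WT 3, DKO 1 or DKO 2 (edgeR adjusted p between 0.0744 and 0.138). ACVR2A had 3.76 ± 0.130 FPKM in WT and 2.86 ± 0.988 in DKO and was not called (edgeR adjusted p = 0.26). Without DKO 3 the log2 changes of BMPR2, TGFBR2 and ACVR2B were -1.76, -0.30 and 0.51, all called by edgeR, and that of ACVR2A was -0.12 and not called. The summed FPKM of BMPR2, ACVR2A and ACVR2B was 22.7 ± 0.982 in WT and 10.2 ± 1.35 in DKO, and BMPR2 made up 75.8 ± 1.15% of it in WT and 50.1 ± 6.61% in DKO.

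The co-receptors moved in opposite directions. ENG (gene ID 103239824), which encodes endoglin, an endothelial co-receptor for BMP9 and TGF-beta, had 32.4, 34.0 and 31.6 FPKM in WT and 21.8, 20.1 and 26.6 FPKM in DKO. It fell with a log2 change of -0.47 (SE 0.15, edgeR adjusted p = 0.038). The call was lost when any library other than DKO 3 was left out (edgeR adjusted p between 0.093 and 0.111), and the log2 fold change was -0.64 without DKO 3. Of 6 endothelial markers in the table, TEK, a receptor of angiopoietins, rose from 0.0467 ± 0.0153 to 15.1 ± 0.386 FPKM, while PECAM1, KDR, ERG and CLDN5 were each at 0.12 FPKM or less in both group means and VWF at 0.243 or less. The summed level of these markers was 0.3 to 0.39 FPKM in WT and 15.1 to 15.8 in DKO, opposite in direction to ENG, and its part in the ENG value was not tested. TGFBR3, betaglycan, which presents TGF-beta 2 to its receptor, rose from 1.80 ± 0.159 to 3.29 ± 0.20 FPKM (log2 change 0.74, SE 0.14, edgeR adjusted p = 0.0043), and its log2 change was 0.84 without DKO 3.

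**Figure D3:**
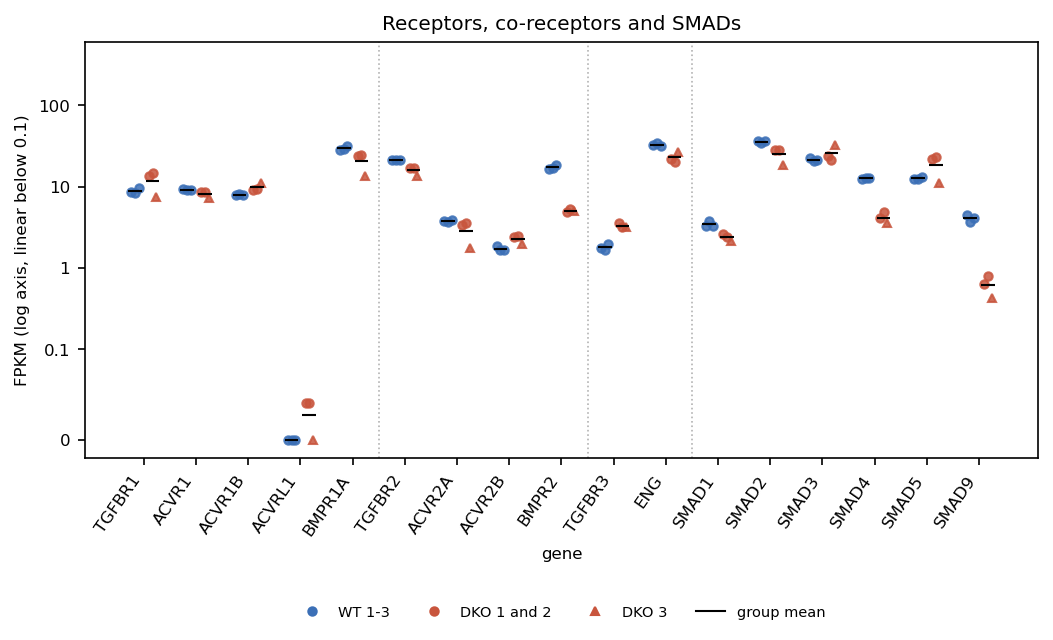
FPKM (log axis, linear below 0.1) of the type I receptors, type II receptors, co-receptors and SMADs in each library, with group means as bars and DKO 3 as triangles. BMPR2, SMAD4 and SMAD9 are lower in all 3 DKO libraries, whereas TGFBR1 and SMAD5 have DKO 1 and 2 above WT and DKO 3 below.

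Of the SMADs that carry the signal, SMAD4, SMAD9 and SMAD1 fell and none was called higher. SMAD4 (gene ID 103222414), the common partner of both branches, had 12.2, 12.9 and 12.6 FPKM in WT and 4.08, 4.81 and 3.58 FPKM in DKO. All DKO libraries lay below WT, at 34.0% of its normalised count (log2 fold change -1.56, SE 0.13, edgeR adjusted p = 0.00011). SMAD9 (gene ID 103214293), the least abundant BMP-branch SMAD in DKO, had 4.47, 3.64 and 4.14 FPKM in WT and 0.64, 0.79 and 0.43 FPKM in DKO (log2 fold change -2.82, SE 0.21, edgeR adjusted p = 7.1e-05). SMAD1 had 3.29, 3.77 and 3.31 FPKM in WT and 2.59, 2.41 and 2.16 in DKO (log2 fold change -0.49, SE 0.13, edgeR adjusted p = 0.0202). The SMAD1 call was lost without WT 1, WT 2, WT 3 or DKO 2 (edgeR adjusted p = 0.0622, 0.0834, 0.0609 and 0.0541). Without DKO 3 SMAD4, SMAD9 and SMAD1 had log2 changes of -1.49, -2.63 and -0.46, all called by edgeR.

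SMAD5, the most abundant BMP-branch SMAD, had 12.4, 12.2 and 13.2 FPKM in WT and 21.6, 23.3 and 10.9 in DKO. DKO 1 and 2 lay above WT and DKO 3 below, with a log2 change of 0.59 (SE 0.25, edgeR adjusted p = 0.094) and of 0.84 without DKO 3 (edgeR adjusted p = 1.16e-19). SMAD5 made up 62.5 ± 1.27% of the summed FPKM of SMAD1, SMAD5 and SMAD9 in WT and 85.3 ± 3.86% in DKO, and SMAD9 20.3 ± 1.84% and 2.91 ± 0.309%. The sum was 20.1 ± 0.515 FPKM in WT, and 24.9, 26.5 and 13.5 FPKM in the DKO libraries.

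SMAD2 (gene ID 103222457), the most abundant SMAD of the set in WT and over both groups together, had 36.4, 34.1 and 36.0 FPKM in WT. In DKO it had 28.2, 27.8 and 18.3 FPKM. All DKO libraries lay below WT, with a log2 change of -0.44 that missed the threshold (SE 0.15, edgeR adjusted p = 0.0516). Without DKO 3 it was -0.30 and called (edgeR adjusted p = 1.56e-05). With all libraries it was also called under 7 other settings, by edgeR with 3 other scalings, DESeq2, limma-voom and limma on filtered FPKM with either pseudocount (adjusted p between 0.04 and 0.0491). SMAD3 had 22.2, 20.8 and 21.1 FPKM in WT and 23.8, 21.4 and 32.2 in DKO and was not called (log2 change 0.31, SE 0.18, edgeR adjusted p = 0.2; 0.09 without DKO 3). SMAD4 made up 14.02 ± 0.653% of the summed FPKM of the 6 SMADs in WT and 5.44 ± 0.481% in DKO.

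**Figure D4:**
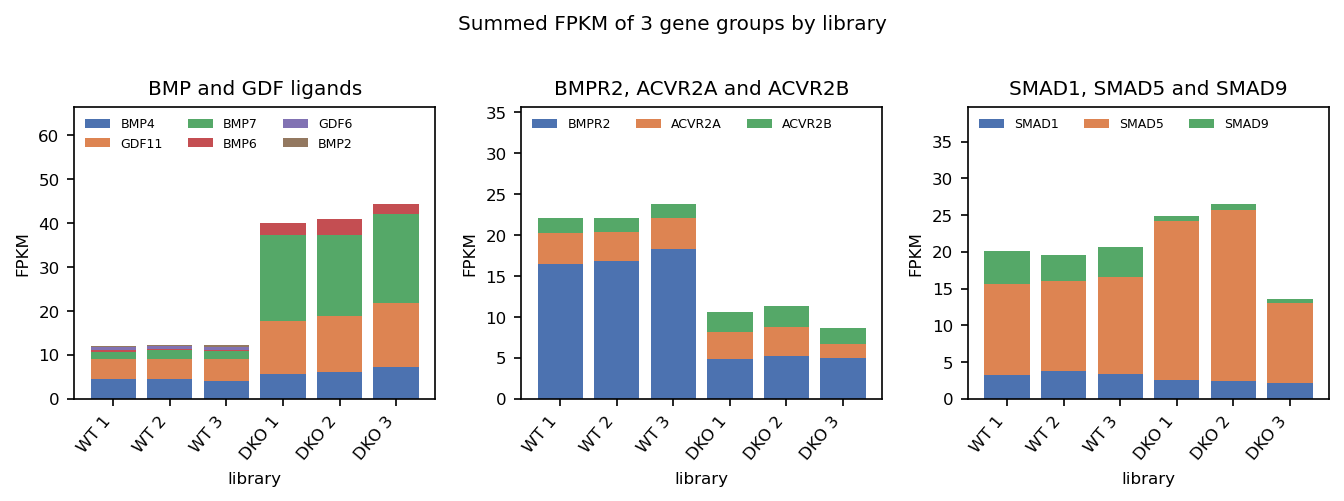
Stacked FPKM in each of the 6 libraries for the BMP and GDF ligands, for BMPR2 with ACVR2A and ACVR2B, and for SMAD1, SMAD5 and SMAD9. The ligand sum rises from about 12.2 in WT to 41.8 in DKO with BMP7 as the largest part, the receptor sum falls from 22.7 to 10.2, and in the SMAD panel DKO 3 is lower than DKO 1 and 2.

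The brakes that act inside the cell or at its membrane moved both ways: SMAD6, SMAD7, PMEPA1 and BAMBI fell, and the ubiquitin ligase genes SMURF1 and SMURF2 rose. PMEPA1 (gene ID 103243687), a TGF-beta target whose membrane protein sequesters SMAD2 and SMAD3, had 66.0, 66.5 and 61.8 FPKM in WT and 5.23, 5.78 and 5.27 FPKM in DKO. DKO kept 8.68% of the WT normalised count (log2 fold change -3.53, SE 0.10, edgeR adjusted p = 4.4e-06), with the 3 libraries of each group close together. SMAD7 (gene ID 103222446), the inhibitory SMAD of both branches, had 27.4, 29.6 and 29.5 FPKM in WT and 7.70, 7.67 and 8.65 FPKM in DKO (log2 fold change -1.80, SE 0.12, edgeR adjusted p = 5.2e-05). SMAD6, which inhibits mainly the BMP branch, fell from 6.88 ± 0.649 to 4.15 ± 0.386 FPKM (log2 change -0.69, SE 0.13, edgeR adjusted p = 0.0045). BAMBI (gene ID 103238055), a decoy that resembles a type I receptor without a kinase, had 12.5, 11.7 and 10.3 FPKM in WT and 4.22, 2.95 and 4.49 FPKM in DKO (log2 fold change -1.51, SE 0.20, edgeR adjusted p = 0.0011).

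SMURF2 (gene ID 103243842), which tags receptors and SMADs for breakdown, had 14.5, 14.5 and 16.6 FPKM in WT and 42.4, 43.1 and 32.9 FPKM in DKO. It was 2.67-fold higher in normalised counts, above WT in every DKO library (log2 fold change 1.42, SE 0.13, edgeR adjusted p = 0.00016). SMURF1, its close relative, rose from 6.86 ± 0.327 to 10.5 ± 0.479 FPKM (log2 change 0.65, SE 0.11, edgeR adjusted p = 0.0032). The nuclear corepressor gene SKI had 14.3 ± 1.06 FPKM in WT and 14.3 ± 0.886 in DKO, with a log2 change of 0.04 (SE 0.11, edgeR adjusted p = 0.8) whose sign turned under other settings. SKIL (gene ID 103221266), which encodes the related corepressor SnoN, had 15.7, 13.9 and 15.96 FPKM in WT and 9.04, 9.63 and 2.02 FPKM in DKO. All DKO libraries lay below WT, but DKO 3 lay far below the others, and the log2 fold change of -1.12 was not called (SE 0.49, edgeR adjusted p = 0.1). Without DKO 3 it was -0.70 (edgeR adjusted p = 1.38e-14), and DESeq2 called it with all libraries (adjusted p = 0.0198). In the fit without DKO 3, PMEPA1, SMAD7, SMAD6 and BAMBI had log2 changes of -3.55, -1.90, -0.65 and -1.68, and SMURF2 and SMURF1 of 1.5 and 0.58, all called by edgeR. SKI was at 0.06 and not called.

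All 3 ID genes with a row fell, where 22.2% of all tested genes were called lower. ID proteins bind basic helix-loop-helix factors and keep them off DNA, and their genes are the most widely used transcript readout of BMP signalling. ID3 (gene ID 103225394), the most abundant of the 50 genes in WT, had 209, 227 and 219 FPKM in WT and 71.6, 71.5 and 84.1 FPKM in DKO. Its normalised count in DKO was 36.1% of that in WT (log2 fold change -1.47, SE 0.13, edgeR adjusted p = 0.00017). ID1 (gene ID 103247994) had 165, 177 and 180 FPKM in WT and 77.2, 71.3 and 77.4 FPKM in DKO, 45.2% of WT in normalised counts (log2 fold change -1.15, SE 0.11, edgeR adjusted p = 0.00026). ID2 (gene ID 103220858) changed least, with 66.3, 66.0 and 74.3 FPKM in WT and 52.5, 47.4 and 35.5 in DKO (log2 fold change -0.57, SE 0.14, edgeR adjusted p = 0.0133). Its call was lost without WT 3 (-0.52, edgeR adjusted p = 0.065) and with the replicate number as a block (edgeR adjusted p = 0.0546). Without DKO 3 the log2 fold changes of ID1, ID2 and ID3 were -1.24, -0.47 and -1.61, all called by edgeR.

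**Figure D5:**
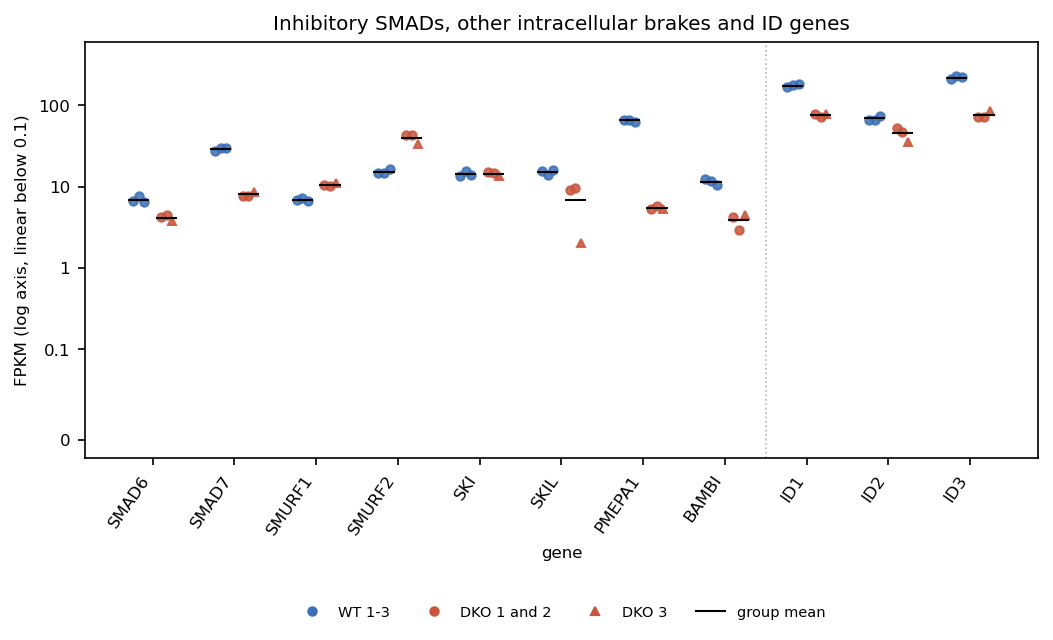
FPKM (log axis, linear below 0.1) of the inhibitory SMADs, the other brakes and the ID genes in each library, with group means as bars and DKO 3 as triangles. PMEPA1 lies between 61.8 and 66.5 in WT and between 5.23 and 5.78 in DKO, and for SKIL the DKO 3 library at 2.02 lies apart from DKO 1 and 2.

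A list of 106 further genes of these pathways, grouped by function, gave the context. This list too was chosen with earlier results of these data known. It held 96 genes of the table, 69 of which were tested. By edgeR 20 were higher and 24 lower, against 23.3% and 22.2% of all tested genes, and 29 and 33 of 70 without DKO 3. By function, 17 of 18 tested textbook target genes, 15 of 17 tested extracellular modulators and 7 of 26 intracellular regulators were called, beside 45.5% of all tested genes. Whether these shares differ between the functions was not tested.

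The textbook targets went both ways, 10 higher and 7 lower, beside 23.3% and 22.2% of all tested genes. Without DKO 3 it was 11 and 7, beside 36.0% and 38.6%. Among those higher were LOX, the collagen cross-linking oxidase, from 14.9 ± 0.841 to 348 ± 90.7 FPKM (log2 change 4.58, SE 0.20), and CCN2, connective tissue growth factor, from 130 ± 4.37 to 429 ± 23.7 FPKM (1.77, SE 0.08). The homeobox gene MSX1, a BMP target in limb and tooth, rose from 4.60 ± 0.152 to 16.7 ± 0.831 FPKM (1.91, SE 0.12). Among those lower were FN1, the matrix protein fibronectin, from 1838 ± 57.1 to 207 ± 21.8 FPKM (-3.10, SE 0.12), COL1A1 from 7.40 ± 0.632 to 1.06 ± 0.219 (-2.75, SE 0.20) and the bone transcription factor gene RUNX2 from 4.18 ± 0.348 to 0.610 ± 0.229 (-2.83, SE 0.25). MSX2 and the BMP targets HEY1 (-2.44, SE 0.13) and ATOH8 (-1.43, SE 0.18) were picked for mention after their values were seen. The genes named here as BMP targets did not share a direction: ID1, ID2, ID3, HEY1 and ATOH8 fell while MSX1 and MSX2 (1.45, SE 0.13) rose. This is no tally of all BMP targets, since HEY1, ATOH8 and MSX2 were picked on their values.

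Of the 17 tested extracellular modulators, 4 were higher and 11 lower, beside 23.3% and 22.2% of all tested genes. Without DKO 3 it was 4 and 12, beside 36.0% and 38.6%. The proprotein convertase gene PCSK6 rose from 1.59 ± 0.150 to 11.3 ± 0.584 FPKM (log2 change 2.87, SE 0.13), while PCSK5 fell from 6.79 ± 0.414 to 0.527 ± 0.0551 FPKM (-3.61, SE 0.14). FURIN, the best-known convertase of TGF-beta and BMP precursors and picked for mention after its values were seen, fell from 46.9 ± 0.893 to 19.5 ± 2.22 FPKM (-1.22, SE 0.13). BGN, the matrix proteoglycan biglycan, rose from 3.04 ± 0.474 to 64.5 ± 11.1 FPKM (4.46, SE 0.21), and LTBP4 from 3.70 ± 0.286 to 16.8 ± 2.48 FPKM (2.23, SE 0.16), opposite to LTBP1. THBS1, thrombospondin, an activator of latent TGF-beta, fell from 286 ± 4.04 to 57.8 ± 5.39 FPKM (-2.26, SE 0.11), and the BMP1-related protease gene TLL1 from 2.53 ± 0.256 to 0.457 ± 0.0808 FPKM (-2.66, SE 0.17).

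Of 4 further ligands tested, 2 were higher. INHBE, an activin subunit gene, had 2 counts over the WT libraries and 53 over the DKO libraries, a ratio of 27.7 (exact 95% counting interval 7.30 to 235; edgeR adjusted p = 0.0022). GDF9, an oocyte factor, rose from 2.59 ± 0.114 to 5.01 ± 0.676 FPKM (log2 change 1.00, SE 0.13). Of 4 tested receptors and co-receptors, 1 was higher and 2 lower. AMHR2, the type II receptor of anti-Müllerian hormone, rose from 0.203 ± 0.0289 to 0.623 ± 0.131 FPKM (1.63, SE 0.31). INHBE and AMHR2, both under 1 FPKM in each group mean, were named after their values were seen. Both passed the filter only through DKO, the group in which they were high. The BMP co-receptor gene RGMB fell from 1.58 ± 0.137 to 0.467 ± 0.155 FPKM (-1.71, SE 0.24) and CD109, a TGF-beta co-receptor that dampens the signal, from 9.28 ± 0.104 to 3.30 ± 1.32 FPKM (-1.47, SE 0.28). Of the 26 intracellular regulators, 3 were higher: TAB1 (0.97, SE 0.18), the deubiquitinase gene USP4 (0.84, SE 0.11) and the ubiquitin ligase gene NEDD4L (0.72, SE 0.10). The genes that fell were FKBP1A (-0.62, SE 0.09), which encodes a guard of the type I receptor, USP9X (-0.53, SE 0.16), which encodes a deubiquitinase, the coactivator gene CREBBP (-0.47, SE 0.09) and ZFYVE9 (-0.36, SE 0.11), an adaptor for SMAD2 and SMAD3 named after its values were seen. The USP9X call was lost without WT 1, WT 2, WT 3 or DKO 1 (edgeR adjusted p between 0.0522 and 0.112) and that of ZFYVE9 without any library other than DKO 3 (edgeR adjusted p between 0.0621 and 0.114). Without DKO 3, 9 of the 26 were higher and 11 lower, where 74.6% of all genes were called. In that fit the further ligands had 2 higher and 1 lower of 4 and the receptors 3 and 2 of 5.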

How the data were processed

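Per the labels' protocols, RNA was isolated with TRIzol and libraries were made with a BGI mRNA kit. The authors deposited 1 table with estimated counts and FPKM per gene, per the file headers. The submitters' processing notes name HISAT and Bowtie2. The counting program, genome build and strand use: not given in the sources used here. Between 5.8 and 6.54% of the estimated counts per library were not whole, and 4 members had such counts (BMP7, LTBP1, BMPR1A, SMAD5). Its 9 columns for 3 further samples were left out. All 50 gene IDs had the same symbol in RefSeq (assembly mChlSab1.0.hap1), consulted for names and neighbours alone: 4 overlap another gene of the table (BMP6, GDF11, ENG, ID2). Coordinates and sequences are not reported.

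Estimated counts were rounded and tested with edgeR 4.0.16 (R 4.3.3), by the quasi-likelihood test with TMM and the default filter (minimum count 10), with Benjamini-Hochberg adjustment over 13094 genes. The SE is the size of the log2 change over the square root of the F statistic. Normalised counts are per TMM-scaled total. Full values are given for called members whose log2 change reached 1 in size and whose higher group reached 1 FPKM, and for the most abundant member of each layer; in the context list, up to 3 genes per group and direction. Members and lists were chosen with earlier results of these data known. Pairs of libraries differed by a chi-square per gene of 1.54 (DKO 1 and 2) to 190 at equal totals, so none was a copy of another and each was counted as a sample. This does not show that they were separate cultures. The fit without DKO 3 rests on the close DKO 1 and 2, so its small p-values cover the spread of that pair and of WT only. DESeq2 1.42.0, limma 3.58.1 and other settings were alternatives, and the tests were checked on simulated counts. Figures used matplotlib 3.10.9. The values of 1 gene of the context list are not reported here.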

Additional observations from a re-analysis of the deposited data

How the results depend on the processing

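Without DKO 3, edgeR called 9880 genes (4770 higher, 5110 lower) against 5959 (3055 and 2904) with all libraries, and at an adjusted p below 0.01 it called 3902, 1950 of them higher. Leaving out each library in turn gave 4266 to 9880 called genes, 2105 to 4770 higher and 2146 to 5110 lower. In the same fits 23 to 41 of the pathway members were called (10 to 16 higher, 13 to 25 lower), as were 40 to 62 of the context genes (18 to 29 higher, 22 to 33 lower). The log2 fold changes of ATL2 and ATL3 kept direction and call under each alternative that was run for them. At the threshold of 0.05, 23 of the 30 called members kept their call in every fit that tested them. Of these, 22 also passed 0.01 (FSTL3, at 0.0101, did not), as did 3902 of all 13094 tested genes. How many of all called genes kept their call in every fit was not counted. ACVR2B, BMP4, ENG, ID2, INHBA, SMAD1 and TGFBR2 lost their call in at least 1 fit. ACVR2B also lost it with DESeq2 (adjusted p = 0.0508), with totals without the 100 most abundant genes, without the filter, and with limma on FPKM. No called member changed direction. Members near 0 did. The log2 change of SKI ran from -0.0093 (without WT 1) to 0.088 when 1 library was left out and was -0.0031 with totals without the 100 most abundant genes. CHRD ran from -0.80 to 0.038 (without WT 1) and was 0.028 without DKO 1. In the context list, leaving out 1 library gave TWSG1 -0.35 to 0.060 and TRAF6 -0.099 to 0.069. It gave TGIF1 -0.058 to 0.15, CDKN2B -0.0027 to 0.20 and USP15 -0.057 to 0.44. USP15 was also -0.036 with limma on log2(FPKM + 1), with or without the filter, and -0.046 with a pseudocount of 0.1; the cause was not tested.

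The labels state no pairing by replicate number. Deviations from the group means of same-numbered libraries correlated at 0.02, -0.28 and -0.29, and those of other-numbered libraries at -0.26 to 0.31. Deviations within a group cancel out, so these correlations are tied to each other and cannot settle whether the samples were paired. With the replicate block 4485 genes, 24 members (10 higher, 14 lower) and 41 context genes (19 higher, 22 lower) were called, and BMP4, TGFBR2, ACVR2B, ENG, SMAD1 and ID2 lost their calls (edgeR adjusted p between 0.0546 and 0.109). Depth limits BMP2, GDF5, ACVRL1, GREM1 and FST, which were below the filter with all libraries. BMP2 and GREM1 passed it without DKO 3, where it asked for fewer libraries, and did so through their WT counts alone.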
